A study of Mus musculus with 4 samples.

Results

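The zone genes described here are the dorsal zone genes *Acsm4* and *Nqo1*, the ventral zone gene *Ncam2* and the nuclear factor I (NFI) genes *Nfia*, *Nfib* and *Nfix*. They are 6 of the 24421 genes with a deposited value and were chosen by name for their known roles in the zones of the main olfactory epithelium (MOE). The labels call the mice adult C57BL/6, whereas the study's methods name C57BL/6J eggs for the transgenic lines. The study's reporting summary gives mixed strain backgrounds for its mouse lines. For the transgenic lines used here it gives early postnatal ages, with a wider age range for the TAAR enhancer 2 line than for the TAAR enhancer 1 line. In one transgenic line TAAR enhancer 1 drove GFP, and in the other TAAR enhancer 2 drove tdTomato, each through an Hsp68 minimal promoter in a PiggyBac vector, and each line was kept from 1 founder. MOE cells were sorted into reporter-positive and reporter-negative cells, giving 1 library each, which are called GFP-positive, GFP-negative, tdTomato-positive and tdTomato-negative.

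Most olfactory sensory neurons (OSNs) of the MOE express 1 odorant receptor gene. A distinct group instead expresses *Taar* genes, of the trace amine-associated receptor (TAAR) family, which the study describes as not co-expressed with odorant receptor genes. Some OSNs use other receptors. Each odorant receptor gene is used only within part of the dorsal to ventral extent of the tissue. *Acsm4* encodes a medium-chain acyl-CoA synthetase and *Nqo1* a quinone reductase, both known as markers of the dorsal zone, while *Ncam2* encodes OCAM, an adhesion molecule on OSNs of the more ventral zones. NFI proteins bind DNA as dimers and are known to act in the ventral zones on receptor choice. The sort was by reporter and not by zone, so these libraries cannot check the zone labels themselves.

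In the GENCODE M21 annotation of GRCm38, *Acsm4* lies at chr7:119690026-119714565 and *Nqo1* at chr8:107388225-107403206, both with 1 annotated transcript and no overlap with another gene. *Ncam2* lies at chr16:81200697-81626828 with 4 transcripts, *Nfia* at chr4:97772734-98118874 with 8, *Nfib* at chr4:82290173-82705750 with 12 and *Nfix* at chr8:84699876-84800344 with 8. The dorsal marker genes are thus compact, and *Ncam2* and the NFI genes are long genes with several transcripts, whose TPM is a sum over them.

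The promoters of the marker genes are shown because the NFI proteins described further on bind DNA, and the windows let a reader see which short motifs lie beside each gene. The sequences are from RefSeq, build GRCm38.p6, where 5 of the 6 genes had an entry (not *Nfib*). Each holds the 250 bases before the transcription start, 5′ to 3′ on the gene's strand, with matches in capitals. The *Acsm4* window is chr7:119689776-119690025 on the plus strand, the *Nqo1* window chr8:107403206-107403455 on the minus strand and the *Ncam2* window chr16:81200447-81200696 on the plus strand.
Acsm4: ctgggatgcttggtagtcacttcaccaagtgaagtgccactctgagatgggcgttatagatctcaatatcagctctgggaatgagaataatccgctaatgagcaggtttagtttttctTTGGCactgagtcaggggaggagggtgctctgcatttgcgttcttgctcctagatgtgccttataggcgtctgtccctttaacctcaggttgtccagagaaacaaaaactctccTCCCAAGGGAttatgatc
Nqo1: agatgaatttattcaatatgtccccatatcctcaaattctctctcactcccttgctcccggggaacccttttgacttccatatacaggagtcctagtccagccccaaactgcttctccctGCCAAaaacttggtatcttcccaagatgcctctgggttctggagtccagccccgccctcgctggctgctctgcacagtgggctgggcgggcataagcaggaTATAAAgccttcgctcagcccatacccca
Ncam2: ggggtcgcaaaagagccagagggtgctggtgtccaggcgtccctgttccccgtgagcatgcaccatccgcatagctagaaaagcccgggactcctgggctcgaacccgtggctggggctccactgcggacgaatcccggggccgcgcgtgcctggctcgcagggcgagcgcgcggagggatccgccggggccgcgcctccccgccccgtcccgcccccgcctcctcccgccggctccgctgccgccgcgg
The motifs searched on both strands were the NFI core TTGGC, the full NFI palindrome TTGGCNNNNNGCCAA (which holds the core), the Ebf motif TCCCNNGGGA, the antioxidant response element TGACNNNGC and the TATA box TATAAA. The *Acsm4* window held an NFI core 132 to 128 bases before the start and an Ebf motif 18 to 9 bases before it. Ebf proteins are regulators of OSN genes, and this motif was in 0.779% of the 32851 windows searched. The *Nqo1* window held an NFI core, read on the other strand as GCCAA, 130 to 126 bases before the start and a TATA box 29 to 24 bases before it. The core is a common match, found in 41.5% of windows, and the TATA box was in 12.4%. The *Ncam2* window, the *Nfia* window (chr4:97581693-97581942, at the RefSeq start, well upstream of the GENCODE start given above) and the first of 4 *Nfix* windows held none of these motifs. The *Ncam2* window had 32 CpG dinucleotides and 75.2% G + C, against 4 CpG and 47.2% in *Acsm4*, 5 CpG and 53.2% in *Nqo1* and medians of 6 CpG and 52.4% over all windows. A match is a description of letters in the window only.

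Values are TPM, a transcript level corrected for length and scaled to the same total in each library. With 1 library per group no difference has a replicate check, and no test was made. Differences are log2(TPM + 1), reporter-positive minus reporter-negative, a scale that understates changes of low genes. A gene was called higher or lower at 2-fold (a difference of 1), among genes with at least 1 TPM in either library of the line. Read depth is unknown from TPM. The libraries listed 15096 to 16840 genes above 0, and the 10 highest genes took 5.72% to 9.44% of the total in 3 libraries and 31.5% in the GFP-positive library. Over all genes tested, the median difference was −0.88 in the GFP line and −0.23 in the tdTomato line. Scaling the libraries by their median ratio moved these medians by 0.81 and 0.15.

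*Acsm4* was 343.5 TPM in the GFP-negative library, 237.6 in the GFP-positive, 311.1 in the tdTomato-negative and 351.2 in the tdTomato-positive library. All 4 levels lay within a 1.5-fold range. The difference was −0.53 in the GFP line, which became 0.35 with median-ratio scaling, and 0.17 in the tdTomato line. Of the genes tested, 62.6% had a lower difference than *Acsm4* in the GFP line and 66.1% in the tdTomato line. *Acsm4* was past 2-fold in neither line as deposited, and with scaling to markers of mature OSNs it was 2.52 and 1.21, past 2-fold in both. That scaling put 78.4% of all genes in the GFP line and 39.2% in the tdTomato line at least 2-fold higher.

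*Nqo1* was 1308 TPM in the GFP-negative library, 225.8 in the GFP-positive, 949.4 in the tdTomato-negative and 300.8 in the tdTomato-positive library. Both reporter-positive libraries were below both reporter-negative ones. The difference was −2.53 in the GFP line and −1.66 in the tdTomato line, and it turned to 0.52 in the GFP line when the libraries were scaled to markers of mature OSNs. The negative library was 5.79-fold above the positive one in the GFP line and 3.16-fold in the tdTomato line. The dorsal genes thus had different patterns in the same libraries, and the log2 ratio of *Acsm4* to *Nqo1* was 2.00 higher in GFP-positive than GFP-negative cells and 1.83 higher in tdTomato-positive than tdTomato-negative cells.

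*Ncam2* was 47.4 TPM in the GFP-negative library, 6.08 in the GFP-positive, 48.5 in the tdTomato-negative and 26.0 in the tdTomato-positive library. The reporter-negative libraries were alike (difference 0.03), and both reporter-positive libraries were lower. The difference was −2.77 in the GFP line, past 2-fold, and −0.87 in the tdTomato line, short of it. Scaled to mature OSN markers these became 0.09 and 0.14.

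**Figure D1:**
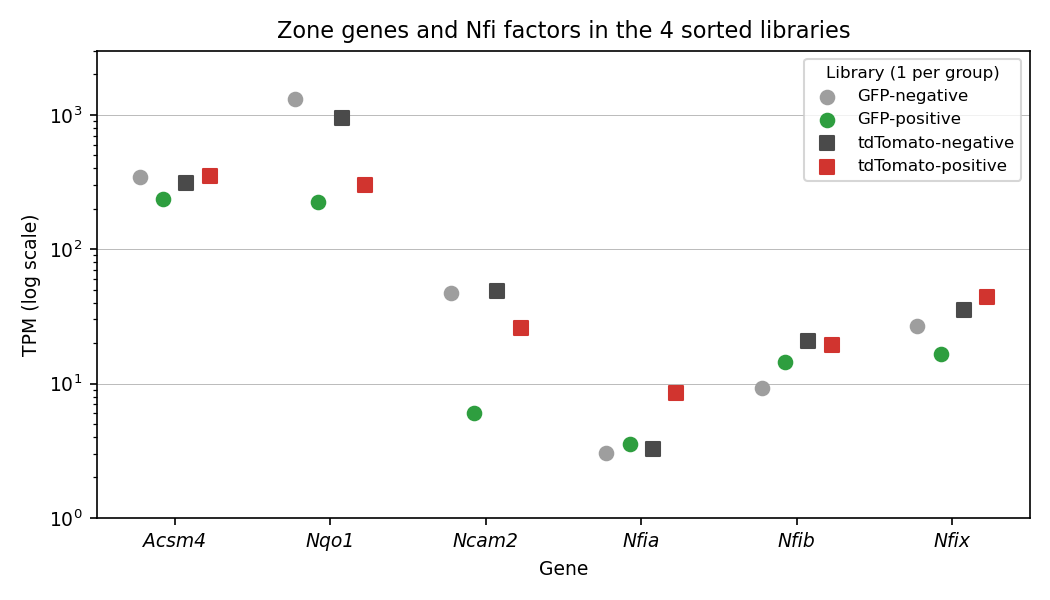
TPM of the 6 zone genes (log axis) in the 4 libraries, 1 point per library with no error bar because each group has 1 library. *Acsm4* lies at 237.6 to 351.2 TPM throughout, while *Nqo1* (225.8 and 300.8 against 1308 and 949.4) and *Ncam2* (6.08 and 26.0 against 47.4 and 48.5) are lower in the reporter-positive libraries.

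Among the 6 genes in the GFP line, 0 were called higher, against 14.2% of all genes tested, and 2 (*Nqo1* and *Ncam2*) were called lower, against 45%. With median-ratio scaling the split over all genes was 22.4% higher and 21.5% lower. In the tdTomato line 1 gene (*Nfia*) was called higher, against 17.2%, and 1 (*Nqo1*) lower, against 23.2%. The median difference of the 6 was −0.59 in the GFP line and 0.04 in the tdTomato line, beside −0.88 and −0.23 over all genes. Between the reporter-negative libraries, 1 of the 6 (*Nfib*) differed by 2-fold, against 23.8% of genes in either direction.

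**Figure D2:**
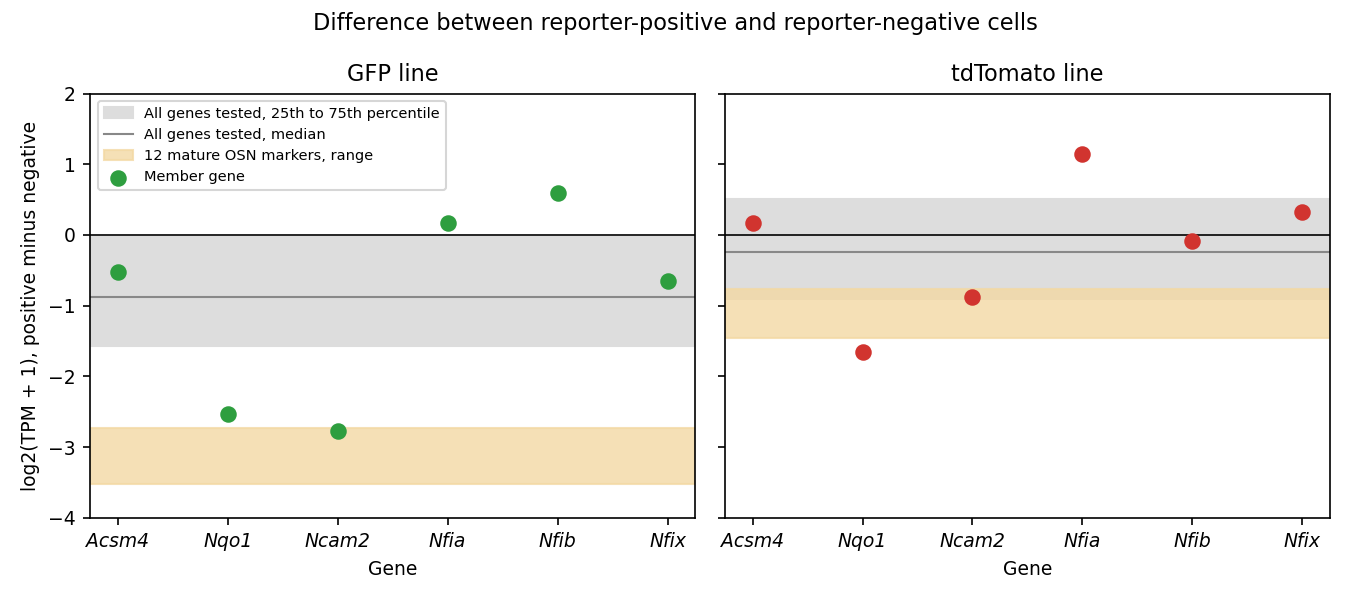
Difference in log2(TPM + 1), reporter-positive minus reporter-negative, for the 6 zone genes in each line, beside the spread over all genes tested. *Nqo1* is at −2.53 and −1.66 and *Ncam2* at −2.77 and −0.87, both below 0 as deposited although *Nqo1* in the GFP line and *Ncam2* in both lines turn above 0 when scaled to mature OSN markers.

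Markers of mature OSNs also moved with these values. All 12 were at least 2-fold lower in the GFP line (median −3.02) and 6 of 12 in the tdTomato line (median −1.02), against 45% and 23.2% of all genes, and their summed level was 28264 and 29123 TPM in the reporter-negative libraries against 3131 (GFP-positive) and 13119 (tdTomato-positive). Of 8 immature OSN markers, 8 were lower in the GFP line (median −2.25) and 5 in the tdTomato line (median −1.12). In such bulk samples, fewer cells of a type and less RNA per cell cannot be told apart. Set against the mean log2 level of these markers, *Acsm4* was 2.51 higher in GFP-positive cells and 1.22 higher in tdTomato-positive cells, *Ncam2* was 0.27 and 0.17 higher, and *Nqo1* was 0.52 higher and 0.61 lower. *Ncam2* thus stayed close to the mature OSN markers in both lines. With the libraries scaled to these markers, 78.4% of all genes in the GFP line and 39.2% in the tdTomato line were at least 2-fold higher, so a rise like that of *Acsm4* was widespread. The part of neuron content in any of these differences was not tested.

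A ratio of zone genes within a library does not depend on how the library is scaled, apart from the added 1 TPM. The log2 ratio of *Acsm4* to *Ncam2* was 2.83 in the GFP-negative library, 5.08 in the GFP-positive, 2.66 in the tdTomato-negative and 3.70 in the tdTomato-positive library. Both reporter-positive libraries were above both negative ones, by 2.24 in the GFP line and 1.05 in the tdTomato line, and the former was 1.32 when 10 TPM was added. Only 8.46% of the genes tested in the GFP line and 26.0% in the tdTomato line had a lower difference than *Ncam2*. A rise of the ratio to *Ncam2* was thus shared by most genes and is not particular to *Acsm4*. The log2 ratio of *Nqo1* to *Ncam2* was 4.76, 5.002, 4.26 and 3.48 in the same order. It was 0.24 higher in GFP-positive than GFP-negative cells, which turned to −0.65 when 10 TPM was added, and 0.78 lower in tdTomato-positive than tdTomato-negative cells. The choice of dorsal gene therefore decided which way the dorsal to ventral ratio differed in the tdTomato line.

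**Figure D3:**
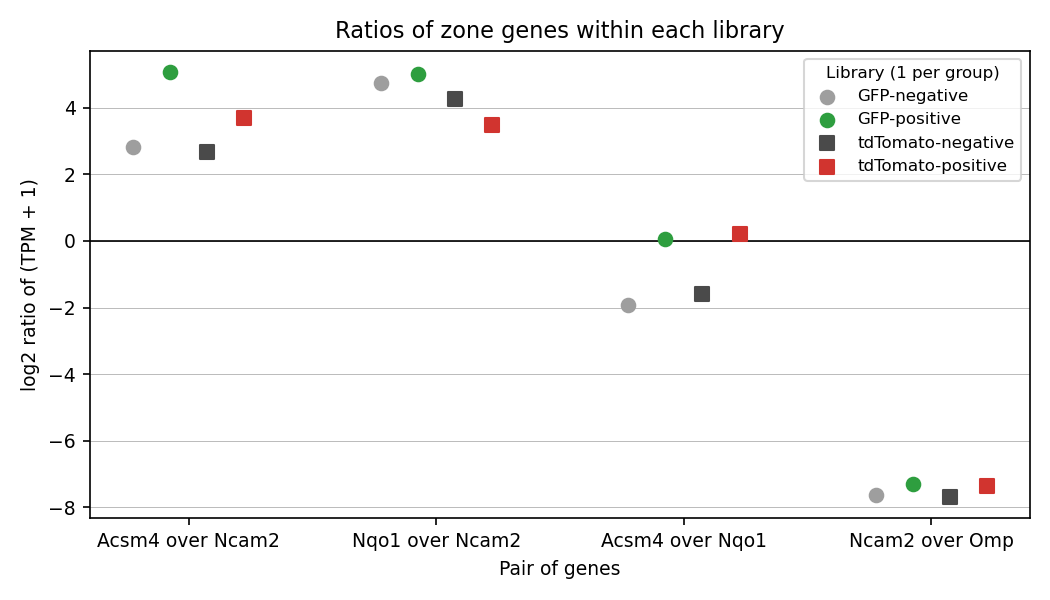
Log2 ratios between zone genes, from TPM + 1, in the 4 libraries, 1 point per library. The *Acsm4* to *Ncam2* ratio is higher in both reporter-positive libraries (5.08 against 2.83 and 3.70 against 2.66), whereas the *Nqo1* to *Ncam2* ratio is 5.002 against 4.76 in the GFP line (the order turns when 10 TPM is added) and 3.48 against 4.26 in the tdTomato line. Most genes tested rose against *Ncam2* in both lines.

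Receptor genes carry zone labels of their own in the study's probe table. The 10 *Taar* genes labelled dorsal held 49.5% of all *Taar* TPM in the GFP-negative library, 69.1% in the GFP-positive, 32.2% in the tdTomato-negative and 93.4% in the tdTomato-positive library. Of the 10, 4 were listed at 0 in the GFP-negative and 7 in the tdTomato-negative library, where their sums were 42.6 and 19.6 TPM, against 555.7 and 3247 TPM in the positive libraries. The 2 labelled ventral, *Taar7a* and *Taar7b*, held 28.4%, 13.0%, 42.4% and 1.59% in that order. The ventral pair was nevertheless higher in summed TPM in both positive libraries, 24.5 to 104.3 in the GFP line and 25.8 to 55.3 in the tdTomato line. The *Taar7* and *Taar8* genes share sequence, so the division of reads among them is uncertain. Both ventral genes are among them, so without them only the 5 remaining dorsal genes and *Taar6*, labelled dorsal and ventral, can be compared. The dorsal genes then held 87.8% in GFP-negative and 81.8% in GFP-positive cells, the opposite order to that with all genes, and 74.8% and 95.7% in the tdTomato line, where the negative library held under 1 TPM of these genes.

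The odorant receptor (OR) genes of the same table gave a further view. The 13 labelled zone 1, the dorsal zone, summed to 525 TPM in the GFP-negative, 87.6 in the GFP-positive, 305 in the tdTomato-negative and 479 in the tdTomato-positive library. The 3 labelled zones 2 to 5 (*Olfr1395*, *Olfr2* and *Olfr1507*) summed to 157, 30.6, 273 and 31.4 TPM. Zone 1 genes were thus 77.0% and 74.1% of the sum in GFP-negative and GFP-positive cells, and 52.8% and 93.9% in tdTomato-negative and tdTomato-positive cells. A few genes carried the tdTomato-positive sum, with *Olfr578* at 184.6, *Olfr690* at 148.5 and *Olfr1034* at 82.7 TPM, while 4 of the 13 were listed at 0, and of the 11 zone 1 genes tested 6 were higher and 4 lower in that line, against 17.2% and 23.2% of all genes. In the GFP line 0 of the 11 were higher and 10 lower, against 14.2% and 45%. *Olfr1507*, also called MOR28, was the only one of the 3 above 2 TPM in the positive libraries, at 27.0 and 31.4 TPM.

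**Figure D4:**
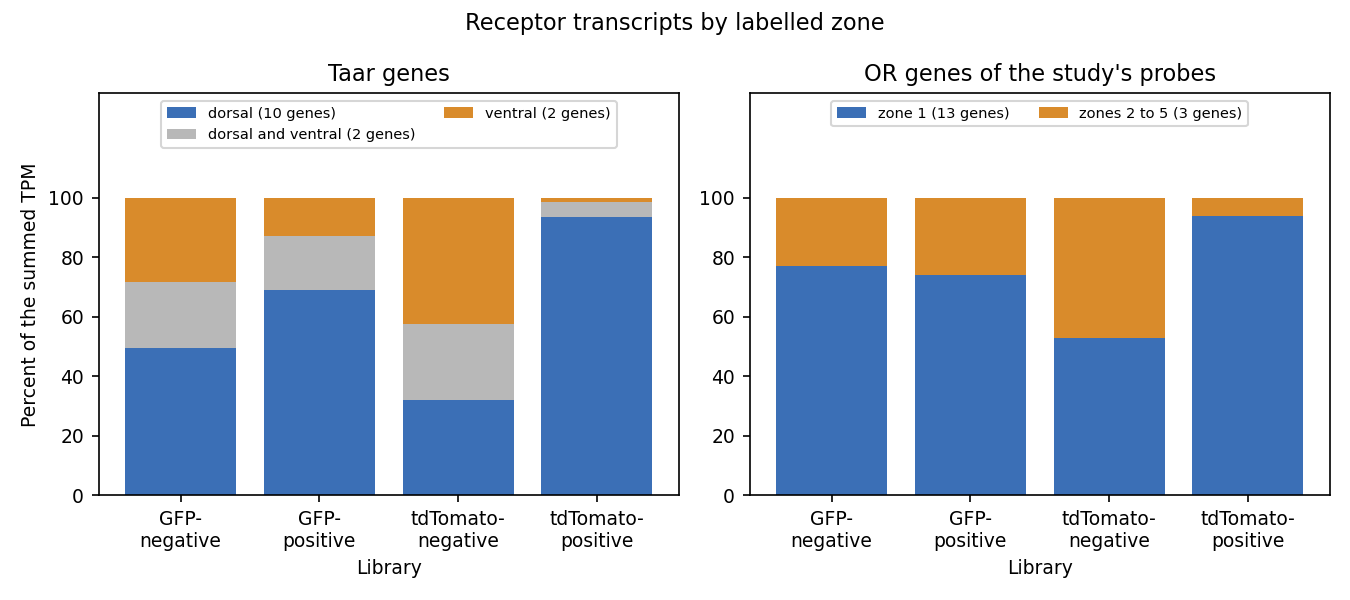
Percent of the summed TPM held by *Taar* genes (left) and by the study's probed OR genes (right) of each labelled zone in the 4 libraries, as stacked bars. The share of dorsal *Taar* genes is 69.1% and 93.4% in the reporter-positive libraries against 49.5% and 32.2% in the negative ones, an order that turns in the GFP line when the *Taar7* and *Taar8* genes, both ventral genes among them, are left out (81.8% against 87.8%), and zone 1 OR genes are 74.1% against 77.0% in the GFP line and 93.9% against 52.8% in the tdTomato line.

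*Nfia* was the lowest of the NFI genes, at 3.04 TPM in the GFP-negative, 3.56 in the GFP-positive, 3.27 in the tdTomato-negative and 8.43 in the tdTomato-positive library. The tdTomato-positive library stood above the other 3. The difference was 0.18 in the GFP line and 1.14 in the tdTomato line, past 2-fold, and the latter was 0.47 when 10 TPM was added.

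*Nfib* was 9.18 TPM in the GFP-negative, 14.4 in the GFP-positive, 20.5 in the tdTomato-negative and 19.3 in the tdTomato-positive library. The lines differed already in their negative cells (by 1.08), by more than positive and negative cells did within either line as deposited. The difference was 0.60 in the GFP line and −0.09 in the tdTomato line. Median-ratio scaling moved these to 1.42, past 2-fold, and to 0.06, and removal of the highest genes gave 1.08 in the GFP line.

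*Nfix* was 26.9 TPM in the GFP-negative, 16.7 in the GFP-positive, 35.0 in the tdTomato-negative and 44.1 in the tdTomato-positive library. It was the highest of the 3 in every library, with 48.2% to 68.8% of their sum. The difference was −0.66 in the GFP line, which median-ratio scaling turned to 0.19, and 0.32 in the tdTomato line. *Lyl1*, which overlaps *Nfix* on the opposite strand, was 32.5, 1.84, 21.2 and 0.0328 TPM in the same order, and E130114P18Rik, which overlaps *Nfia*, was 0, 7.55, 0 and 2.16 TPM. Whether the counting used strand is not given in the sources used here, so reads of these overlapping genes may not be told apart.

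Summed over *Nfia*, *Nfib* and *Nfix*, the NFI level was 39.1 TPM in the GFP-negative, 34.6 in the GFP-positive, 58.8 in the tdTomato-negative and 71.8 in the tdTomato-positive library. The positive to negative log2 ratio was −0.18 in the GFP line, which turned to 0.71 with median-ratio scaling, and 0.29 in the tdTomato line. *Nfic*, the fourth gene of the family, was 15.4, 11.5, 30.1 and 27.5 TPM, within 2-fold in both lines. Against the mean of the mature OSN markers, *Nfia* was 3.22 higher in GFP-positive and 2.19 higher in tdTomato-positive cells, *Nfib* 3.64 and 0.96 higher and *Nfix* 2.39 and 1.37 higher. Most genes rank alike on this measure and as deposited. In the GFP and tdTomato lines, 78.3% and 84.7% of the genes tested had a lower difference than *Nfia*, 83.1% and 56.5% than *Nfib* and 58.1% and 70.5% than *Nfix*. With the libraries scaled to these markers, 78.4% and 39.2% of all genes were at least 2-fold higher. As deposited, 0 of the 4 family members were called in either direction in the GFP line (median −0.11), against 14.2% of all genes higher and 45% lower, and 1 was called higher in the tdTomato line (median 0.12), against 17.2%. *Nfib* was called higher in the GFP line with median-ratio scaling and without the highest genes.

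NFI genes are expressed by many cell types, and markers of non-neuronal cells moved with the reporters. The counts below stand against 14.2% of all genes higher and 45% lower in the GFP line, and 17.2% and 23.2% in the tdTomato line. In the GFP line 9 of 9 sustentacular cell markers (summed 1016 to 7738 TPM), 4 of 5 horizontal basal cell markers (63.0 to 629), 7 of 7 tested Bowman gland markers (1965 to 98609, nearly all of the latter from *Bpifa1* and *Bpifb9b*) and 8 of 10 multiciliated cell markers (836 to 2756) were higher in positive cells. In the tdTomato line 5 of 9 sustentacular markers were higher (summed 1666 to 5176) and 2 lower, *Cyp2g1* (248 to 84.9) and *Cyp1a2* (36.9 to 10.9). *Cyp2a5* alone took 745 and 3572 TPM of these sums, and 442 and 4175 of those in the GFP line. Of 6 tested gland markers, 5 were higher and 1 lower (6840 to 55034, with *Bpifa1* at 6643 and 53377). In the same line 10 of 10 multiciliated markers were higher (721 to 8530) and 5 of 5 horizontal basal cell markers were lower (152 to 29.1). Of 8 globose basal cell markers, 2 were higher and 4 lower in the GFP line (239 to 124) and 6 were lower in the tdTomato line (187 to 99.1). All 6 immune cell markers were lower in both positive libraries (2941 to 24.97 and 1097 to 7.57). Of stromal markers, 3 of 6 were higher and 2 lower in the GFP line and 0 of 4 tested were called in the tdTomato line. The part of these cells in the NFI values was not tested.

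**Figure D5:**
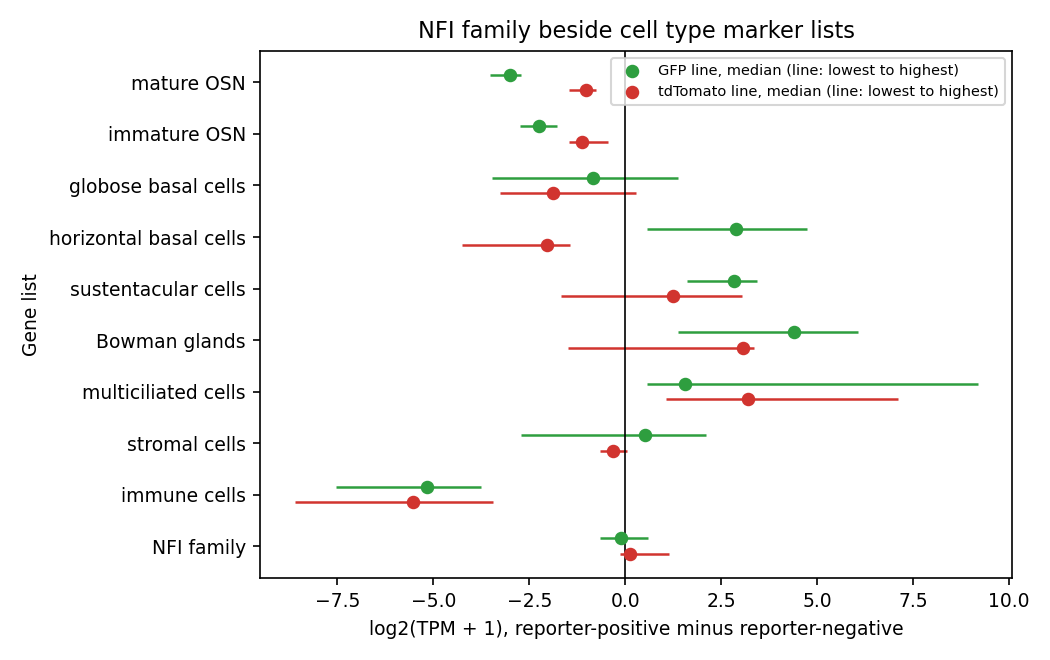
Median (point) and lowest to highest (line) difference in log2(TPM + 1), reporter-positive minus reporter-negative, of the NFI family and of cell type marker lists in each line. Medians of mature OSN markers are −3.02 (GFP) and −1.02 (tdTomato) and those of the NFI family −0.11 and 0.12, signs that turn with the scaling for single NFI genes, while horizontal basal cell markers are at 2.90 and −2.04.

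Genes of zonal axon guidance were measured beside the zone genes. Of 5 tested, 4 were lower in the GFP line (median −2.14) and 3 in the tdTomato line (median −1.08), with 0 higher in either, against 45% and 23.2% of all genes lower. *Robo2*, a Slit receptor on dorsal OSN axons, was 74.5, 13.0, 76.0 and 31.0 TPM in the order GFP-negative, GFP-positive, tdTomato-negative and tdTomato-positive. *Slit1*, a secreted ligand of Robo receptors, was 57.5, 7.44, 64.4 and 29.95 TPM in that order. *Nrp2*, a semaphorin receptor on ventral OSN axons, was 30.3, 6.11, 48.2 and 20.7 TPM. The dorsal and ventral guidance receptors were thus both lower in the positive libraries as deposited. Against the mean of the mature OSN markers *Robo2* was 0.61 higher in the GFP line and 0.23 lower in the tdTomato line, *Nrp2* 0.91 higher and 0.14 lower and *Slit1* 0.25 higher and 0.04 lower. *Sema3f*, a repellent ligand made by dorsal OSNs, was 34.2, 47.0, 41.6 and 58.8 TPM, and was the one gene of the 5 tested with a difference above 0 (0.45 and 0.49). Like *Acsm4*, it was higher against the mature OSN markers, by 3.49 and 1.53, while with the libraries scaled to these markers 78.4% of all genes in the GFP line and 39.2% in the tdTomato line were at least 2-fold higher.

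*Nqo1* is also a target of Nrf2, the regulator of antioxidant genes. Of 10 Nrf2 targets, *Nqo1* included, 1 was higher and 4 were lower in the GFP line (median −0.50), and 3 were higher and 3 lower in the tdTomato line (median −0.13). The shares over all genes were 14.2% higher and 45% lower in the GFP line and 17.2% and 23.2% in the tdTomato line, so the GFP line counts are near the background. *Ephx1*, an epoxide hydrolase, was 78.8, 294, 116 and 323 TPM and was higher in both positive libraries. *Gclc*, a subunit of the enzyme that begins glutathione synthesis, was 76.4, 145, 106 and 342 TPM, past 2-fold in the tdTomato line alone. *Hmox1*, a heme oxygenase also strong in macrophages, was 55.1, 19.6, 241 and 19.95 TPM and was lower in both.

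Retinoic acid signalling is graded between zones of the MOE. Of its genes, 5 of 13 tested were higher and 4 lower in the GFP line (median −0.10), and 3 of 12 were higher and 2 lower in the tdTomato line (median −0.23), beside 14.2% and 45% of all genes in the GFP line and 17.2% and 23.2% in the tdTomato line. *Aldh1a1*, a retinaldehyde dehydrogenase, was 20.2, 816, 45.8 and 2271 TPM, differences of 5.27 and 5.60. *Crabp1*, a retinoic acid binding protein, was 278, 71.4, 208 and 10.5 TPM, differences of −1.95 and −4.18. *Rarg*, a retinoic acid receptor, was 224, 47.6, 262 and 136 TPM, differences of −2.21 and −0.94.

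The genes whose levels followed each zone gene most closely across the 4 libraries were found among 13010 genes reaching 10 TPM, by the Euclidean distance between log2(TPM + 1) values centred on each gene's mean. The nearest were *Prdx4* to *Acsm4* (distance 0.0158), *Ccm2* to *Nqo1* (0.105), *Zdhhc14* to *Ncam2* (0.0637), *Jag1* to *Nfia* (0.0717), *Fntb* to *Nfib* (0.103) and *Fam174a* to *Nfix* (0.0434). Within a distance of 0.25 there were 342 genes for *Acsm4*, 149 for *Nfix*, 83 for *Ncam2*, 46 for *Nfia*, 14 for *Nfib* and 10 for *Nqo1*. The pattern of *Acsm4* was thus shared by the most genes, and those of *Nqo1* and *Nfib* by the fewest of the 6. Distances were not scaled for the size of a gene's changes, so the counts do not measure the pattern alone.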

How the data were processed

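RNA of sorted reporter-positive and reporter-negative MOE cells was sequenced by the authors, 1 library per group and 4 in all. The deposited values are gene-level TPM, and 0 columns were left unused. The submitters' processing notes name Trimmomatic 0.36, Salmon 1.4.0 and mm10, whereas the study's methods name Hisat2 and Cufflinks, and the library kits named also differ, so which steps made these values is uncertain. TPM depends on everything else in a library, and depth is not recoverable from it. Differences of log2(TPM + 1) were computed with Python 3.11.15, NumPy 2.4.6 and pandas 2.3.3 among genes with at least 1 TPM in either library of a line. The 2-fold rule was also run on simulated libraries with 4-fold changes and counting noise only. Those had no variation between animals or sorts, so they cannot show how reliable the calls are here. The 6 genes and the gene lists were chosen with earlier results of these data known. Genes named were the 6, the receptor lists, up to 4 per other list (the highest and lowest differences) and the nearest in pattern to each of the 6, plus a few list genes chosen for their role or level. Other list genes enter only the counts and sums. Alternatives were other pseudocounts, scalings, minimum levels and a 4-fold rule.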

Additional observations from a re-analysis of the deposited data

Results flagged for a closer look

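For 5 measures the lines differed in direction, positive minus negative on the log2 scale, and with 1 library per group the difference between lines was not tested. *Acsm4* was −0.53 in the GFP line and 0.17 in the tdTomato line, and *Nfix* was −0.66 and 0.32, although both were above 0 in both lines with median-ratio scaling. *Nfib* was 0.60 and −0.086, which that scaling moved to 1.42 and 0.06. The *Nqo1* to *Ncam2* ratio was 0.24 and −0.78, and the former was −0.65 with 10 TPM added, so that both were then below 0. The summed level of *Nfia*, *Nfib* and *Nfix* was −0.18 and 0.29, the former turning to 0.71 with median-ratio scaling.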

How the results depend on the processing

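Of the 6 genes, 1 was called higher in the GFP line with median-ratio scaling (22.4% of all genes), 1 without the 24 highest genes (18.5%) and 4 with scaling to mature OSN markers (78.4%), which left 0 called lower (7.51%). Scaling to mature OSN markers gave 3 higher (39.2%) and 0 lower (12.8%) in the tdTomato line. That scaling reversed *Nqo1* (0.52) and *Ncam2* (0.092) in the GFP line, and also turned the sign of *Acsm4* (2.52) and *Nfix* (2.29) there and of *Ncam2* (0.14) and *Nfib* (0.89) in the tdTomato line. The summed NFI ratio in the GFP line was 0.71 with median-ratio scaling, 0.33 without the highest genes and 2.88 with scaling to mature OSN markers, and the last gave 1.33 in the tdTomato line. With 10 TPM added, 0 of the 6 genes were called higher in the tdTomato line (8.47% of all genes), the *Acsm4* to *Ncam2* ratio difference in the GFP line was 1.32 and that of *Nqo1* to *Ncam2* was −0.65. At 4-fold, 0 were higher (8.2% of all genes) and 0 lower (11.4%) in the tdTomato line. A scaling moves every gene of a library by 1 factor and an added 10 TPM shrinks differences of genes near that level, so these shifts follow from how the alternatives are built. A minimum of 5 TPM left 5 of the 6 genes tested in the GFP line, without *Nfia*. Of the alternative values of the main results, 14 moved by over 1.5 times and 38 did not, although the 38 include the 0.33 above, a change of sign. No paired test across the lines was made, because they carry different enhancers and reporters and are not replicates of the same contrast. A single library stands for each group, so no replicate could be left out either. Depth is unknown, and *Nfia*, at 3.04 to 8.43 TPM, is the value nearest to the added 1 TPM.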

Other observations

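Family relatives of the marker genes were measured too. *Ncam1*, the closest relative of *Ncam2*, was 109.5 TPM in the GFP-negative, 14.05 in the GFP-positive, 178.5 in the tdTomato-negative and 94.0 in the tdTomato-positive library. The ratio of *Ncam2* to *Ncam1* TPM was 0.433 in both libraries of the GFP line and 0.271 and 0.277 in the negative and positive libraries of the tdTomato line, so it was nearly the same in positive and negative cells while differing between lines. *Nqo2*, a relative of *Nqo1*, had the opposite direction to it, at 4.41, 16.8, 6.82 and 44.5 TPM in the same order. *Acsm1* was 2.35, 45.0, 1.75 and 7.14 TPM and *Acsm3* was 2.90, 22.8, 13.6 and 5.002 TPM, both below *Acsm4* in every library.

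Class I OR genes, which are used in the dorsal zone, were taken as the 124 *Olfr* genes of the chromosome 7 stretch between the outermost class I genes of the probe table, a set made after its values were seen. Of the TPM of these and the 989 other *Olfr* genes with a GENCODE position, they held 17.2% in the GFP-negative library, 25.8% in the GFP-positive, 15.2% in the tdTomato-negative and 50.0% in the tdTomato-positive library. In the tdTomato-positive library 57 of the 124 and 782 of the 989 were listed at 0, against 44 and 392 in the tdTomato-negative. In the GFP-positive library 28 and 568 were at 0, against 18 and 240 in the GFP-negative. In the sum of their TPM, 3149 and 402 in the GFP line and 3135 and 2641 in the tdTomato line, positive cells were below negative cells in both lines.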
